A study of Mus musculus with 12 samples.

Results

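Oxidative phosphorylation subunits are the proteins of the 5 mitochondrial complexes that move electrons from NADH and succinate to oxygen and use the resulting proton gradient to make ATP. The members described here are the protein-coding genes of GENCODE mouse release 21 whose symbols start with Nduf, Uqcr, Sdh, Atp5 or Cox followed by 4 to 8, plus the mt- protein-coding genes, and 101 of the 25904 rows of the expression table met that rule. Of these, 93 are nuclear genes and 8 are encoded by mitochondrial DNA (mt-Nd1, mt-Nd2, mt-Nd3, mt-Nd4, mt-Nd5, mt-Nd6, mt-Cytb and mt-Co1). By symbol, the nuclear members comprise 37 complex I subunits and 8 complex I assembly factors, 4 complex II subunits and 4 complex II assembly factors, 8 members of complex III, 15 of complex IV and 17 of complex V. Cox7b2, Cox8b, Cox8c, Ndufa4l2, mt-Co2, mt-Co3, mt-Atp6, mt-Atp8 and mt-Nd4l were not analysed here.

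RNA was sequenced from 12 pools of sorted cells of C57BL/6 mice, with 3 pools for each of 4 groups. The WT microglia came from mice with 2 floxed Tgfbr2 alleles and no Cre, and KO microglia from such mice that also carried CreER, a tamoxifen-activated recombinase, on 1 allele of Cx3cr1. Tgfbr2 codes for a subunit of the TGF-beta receptor, and Cx3cr1 drives expression in microglia and in other mononuclear phagocytes. Both received 5 mg of tamoxifen on each of 3 days, and their cells were taken from brain and spinal cord after 18 to 22 days. WT and KO macrophages grew from bone marrow of those same genotypes after transfer into irradiated hosts, whose own Cx3cr1 CreER and R26 DTA (diphtheria toxin) alleles let tamoxifen remove the microglia 6 weeks later. These macrophages had repopulated the CNS when they were sorted, again at 18 to 22 days. Only the KO cells carry CreER, and sorted cells were F4/80 low when WT but F4/80 high when KO, so Cre, gate and genotype cannot be told apart. A pool held 1 to 5 mice, and p-values therefore rest on the spread between pools.

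Complex I oxidises NADH, complex II oxidises succinate, complex III passes electrons to cytochrome c, complex IV reduces oxygen, and complex V is the ATP synthase. Complexes I, III, IV and V are built from proteins of 2 genomes: the mitochondrial DNA encodes hydrophobic core subunits and the nucleus encodes all others, whereas complex II is nuclear only. In macrophages the balance between this pathway and glycolysis is known to differ between activation states.

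Libraries held 2615404 to 6364994 reads in genes. Tgfbr2 was 2898 ± 356 normalized counts (SD, n = 3) in WT microglia, 2193 ± 100.1 in the KO microglia, 3303 ± 267 in the WT macrophages and 2235 ± 209 in the KO macrophages, and fell with KO in both cell origins (limma, adjusted p = 0.00515 in microglia and 0.000608 in macrophages). Which exons the floxed allele removes is not given in the sources used here, so this is a partial check of the labels. The summed level of 6 microglial markers was 49591 to 62549 in the WT microglia, 2940 to 3077 in the KO microglia, 12413 to 13064 in the WT macrophages and 2982 to 4074 in the KO macrophages, so the libraries labelled KO microglia are low in markers that define the cell type. The 6 general macrophage markers summed to between 25995 and 45710 in all groups, but single markers moved in opposite directions. In KO against WT microglia Itgam (−2.29 ± 0.22), Csf1r (−1.31 ± 0.10) and Aif1 (−0.43 ± 0.10) fell. Adgre1 (1.46 ± 0.09), Cd68 (1.30 ± 0.15) and Ptprc (0.98 ± 0.10) rose (each limma adjusted p under 0.05). Neuronal markers (8 genes, 5 of them tested, with Syt1 at 0 in WT microglia) summed to 30.02 to 36.1 in the WT microglia, 490.3 to 753 in the KO microglia, 61.9 to 97.9 in the WT macrophages and 241.7 to 303 in the KO macrophages. On average most of that sum in the KO groups was Meg3, a long noncoding RNA, at 473 ± 131 in KO microglia and 176 ± 64.0 in the KO macrophages. The 6 astrocyte markers, 4 of them tested, summed to 633 to 724 in WT microglia, 228 to 299.8 in KO microglia, 46.9 to 61.0 in WT macrophages and 138 to 154 in KO macrophages. Most of the WT microglia sum was Slc1a3, at 613 ± 69.8, which was 48.7 ± 5.70 in KO microglia (limma, −3.63 ± 0.43, adjusted p = 5.40e-06). The remaining tested markers rose in KO microglia. They were Gfap (4.19 ± 0.52, adjusted p = 8.81e-06), Aldh1l1 (2.39 ± 0.70, adjusted p = 0.0121) and Slc1a2 (1.205 ± 0.265, adjusted p = 0.00168). Gfap (2.97 ± 0.52, adjusted p = 0.000513) and Slc1a2 (adjusted p = 0.00478) also rose with KO in macrophages, where Slc1a3 and Aldh1l1 were not called. The 6 oligodendrocyte markers ranged from 339 to 649.9 over all libraries, and Mobp among them rose with KO by 2.31 ± 0.39 in microglia and 1.58 ± 0.39 in macrophages (adjusted p = 0.000165 and 0.00611). The Y-linked Ddx3y was above 400 normalized counts in all 3 KO microglia libraries but in only 1 library of each other group, so the sexes of the pools were not balanced. The labels carry no replicate numbers, so replicates are numbered here by the order of the sample titles within each group. KO macrophage replicate 1 stood apart: it was the shallowest library and had the highest summed level of nuclear members.

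Values below are normalized counts, which are reads divided by a library size factor, and fold changes are differences of log2(normalized count + 1) with their standard error. A gene is called when limma gave an adjusted p under 0.05 over the 12519 genes tested, which are those with at least 10 normalized counts in at least 3 libraries. Of the members, 96 were tested, 88 nuclear and all 8 mitochondrial. The other 5 (Cox4i2, Cox6a2, Cox7a1, Atp5g2 and Atp5l) were too low. Without the libraries of 1 group, 3 members would have missed the filter. Of these, Ndufb4 and Ndufs5 were called in no comparison, and Cox6b2 was tested through the WT macrophages, where it is highest. In bulk samples, fewer cells of a type and less RNA per cell cannot be told apart.

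The summed nuclear members were lowest in WT macrophages. They came to 6490, 6511 and 6817 normalized counts there, against 8046, 7485 and 7600 in the WT microglia, 7364, 7505 and 8287 in the KO microglia, and 9236, 8310 and 7626 in the KO macrophages. No library of another group was as low as the highest WT macrophage library. The summed mitochondrial members were 13500, 11066 and 16131 in the WT macrophages, 20797, 17796 and 18408 in the WT microglia, 19339, 20665 and 23751 in the KO microglia, and 13922, 19946 and 17133 in the KO macrophages. WT macrophages were again lower than both microglial groups, but KO macrophage replicate 1 lay within their range.

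The ratio of mitochondrial to nuclear member reads, in which scaling between libraries cancels, was 2.58, 2.38 and 2.42 in the WT microglia and 2.63, 2.75 and 2.87 in the KO microglia. It was 2.08, 1.70 and 2.37 in the WT macrophages and 1.51, 2.40 and 2.25 in the KO macrophages. In this ratio of summed reads the KO microglia lay above the WT microglia without overlap, by 0.16 on the log2 scale. With sums per kilobase of exon these 2 groups overlapped, at 3.81 to 4.12 in WT and 4.08 to 4.44 in KO microglia. mt-Co1 averaged 4039 normalized counts in WT and 6216 in KO microglia. The mitochondrial complex I members summed to 10495 ± 1015 and 10977 ± 1009, and mt-Cytb averaged 4466 and 4059. The 2 macrophage groups overlapped and differed by −0.01. Leaving out 1 library at a time moved the macrophage difference between −0.14 (without WT or KO macrophage replicate 2) and 0.19 (without KO macrophage replicate 1, whose ratio is the lowest of the 12), so its sign rests on single libraries. Macrophages differed from microglia by −0.28 in WT and −0.45 in KO on that scale. The WT gap shrinks to −0.15 without WT macrophage replicate 2, and the KO gap to −0.24 without KO macrophage replicate 1. These ratios are a description of the libraries, with no test.

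**Figure D1:**
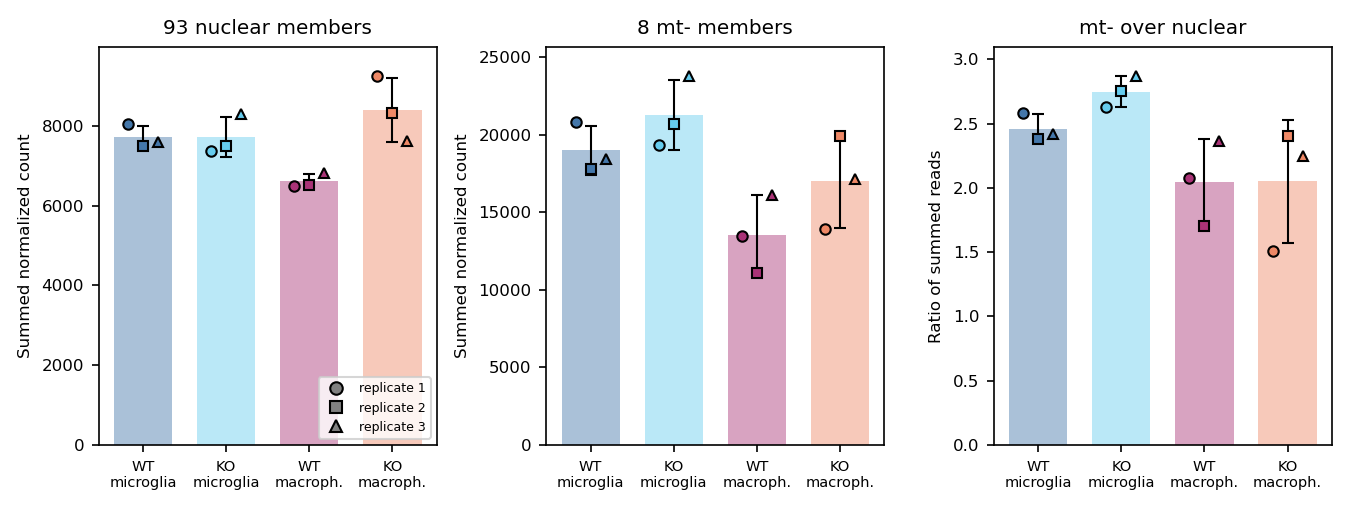
Summed nuclear members, summed mitochondrial members and the ratio of mitochondrial to nuclear reads (y axes, normalized counts and a ratio) in each of the 12 libraries by group; bars are means and whiskers SD (n = 3). Nuclear sums of WT macrophages, 6490 to 6817, lie below those of the 9 other libraries, and the lowest ratio is 1.51 in KO macrophage replicate 1.

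The mitochondrial members spanned a wide range of levels. Per kilobase of exon, mt-Cytb (the catalytic cytochrome of complex III) was highest in WT microglia at 3904 normalized counts, followed by mt-Nd1 at 3189 and mt-Co1 (the catalytic subunit of complex IV) at 2614. mt-Nd6 stood at 342 and mt-Nd3 at 40.0 per kilobase. In KO microglia mt-Co1 came first at 4023 per kilobase, above mt-Nd1 at 3745 and mt-Cytb at 3548.

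The member with the clearest KO response in microglia was mt-Nd6, a complex I subunit and the only protein that mammalian mitochondrial DNA encodes on its light strand. Its normalized counts were 160, 153 and 218.4 in the WT microglia, 467, 464 and 529 in the KO microglia, 239, 249 and 268 in the WT macrophages, and 160, 353 and 344 in the KO macrophages. The 3 KO microglia libraries were above all 9 others. mt-Nd6 rose by 1.47 ± 0.23 in KO against WT microglia (limma, adjusted p = 8.63e-05). In macrophages the KO difference was 0.09 ± 0.23 (adjusted p = 0.791). The difference between the KO effects, macrophages minus microglia, was −1.37 ± 0.32 (adjusted p = 0.00588). KO macrophages were lower than KO microglia by −0.85 ± 0.23 (adjusted p = 0.0261), or −0.48 without KO macrophage replicate 1, and that call is lost when any of the KO microglia libraries is left out.

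mt-Nd6 lies at chrM:13552-14070 of GRCm38 on the light strand, and its end overlaps the end of mt-Nd5 (chrM:11742-13565), which is read from the heavy strand. The ends of both transcripts are shown because reads from these letters belong to either gene unless strand is used. Both are written 5′ to 3′ from the GENCODE transcripts, with the 14 shared bases in capitals.
mt-Nd5: attatcttatactcaaTTAATCTCGAGTAA
mt-Nd6: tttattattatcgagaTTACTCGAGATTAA
Whether the authors' counting used strand is not given in the sources used here, so mt-Nd6 reads and heavy-strand reads across the same bases cannot be told apart. The ratio of mt-Nd6 to mt-Nd5 was 0.0424 to 0.0691 in the WT microglia, 0.162 to 0.167 in the KO microglia, 0.111 to 0.132 in the WT macrophages and 0.0906 to 0.135 in the KO macrophages. Within libraries, then, KO microglia had the highest ratio and WT microglia the lowest, with no overlap of either with the macrophages. mt-Tp, the proline tRNA and another light-strand gene, chosen after its values were seen, was 32.1 ± 4.94 in WT and 57.5 ± 17.0 in the KO microglia (0.79 ± 0.26, limma adjusted p = 0.0240).

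The second mitochondrial gene that rose in KO microglia was mt-Co1. It was at 4347, 3749 and 4020 normalized counts in WT microglia, 5439, 6141 and 7068 in the KO microglia, 3454, 2541 and 3871 in the WT macrophages, and 3299, 5567 and 4667 in the KO macrophages. The microglial groups did not overlap, while KO macrophage replicate 1 lay among the WT macrophages. The rise was 0.62 ± 0.18 in microglia (limma, adjusted p = 0.0104). The macrophage difference was 0.45 ± 0.18 (adjusted p = 0.0678), and the 2 effects did not pass a test of their difference (−0.17 ± 0.25, adjusted p = 0.662). The ratio of mt-Co1 to mt-Cytb was 0.870 to 0.937 in the WT microglia and 1.44 to 1.62 in the KO microglia.

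Thus 2 of the 8 mitochondrial members were called higher and 0 lower in KO against WT microglia, where 21.9% of all tested genes were called higher and 20.6% lower. No mitochondrial member was lower at an unadjusted p under 0.05, or by limma voom. The median log2 change over the 8 was 0.03, against −0.01 over all tested genes. With Ddx3y as a covariate the mt-Nd6 change was 1.197 (adjusted p = 0.00083) and mt-Co1 was not called (0.44, adjusted p = 0.0805). The mt-Co1 call is also lost without KO microglia replicate 3. The mitochondrial ribosomal RNAs mt-Rnr1 and mt-Rnr2 took 3.45% to 3.94% of reads in WT microglia and 5.38% to 7.18% in KO microglia, and the neuronal marker sums were higher there too. Their part in these changes was not tested.

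**Figure D2:**
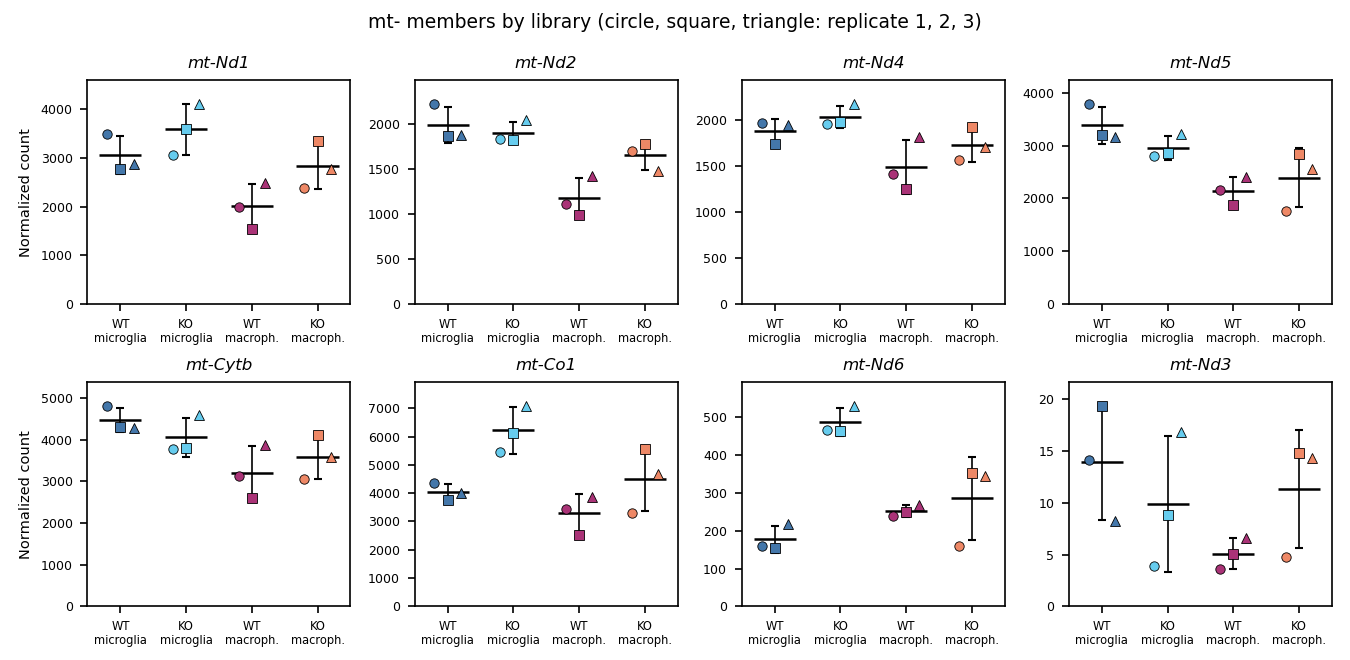
Normalized count (y axis) of each of the 8 mitochondrial members in every library, by group, with the mean as a bar and the SD as whiskers (n = 3). The mt-Nd6 counts of KO microglia, 464 to 529, lie above all other libraries, and mt-Nd2 is lowest in WT macrophages, 993 to 1424.

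In KO against WT macrophages, subunits of all 5 complexes rose. Of 88 nuclear members, 22 were called higher (25.0%, against 16% of all tested genes) and 2 lower (2.27%, against 15.4%). Called genes in either direction made up 31.4% of all tested. The median nuclear log2 change was 0.39, against 0.00 over all tested genes, and 69 of 88 values were above 0. The called rises were 9 of 37 complex I subunits, 2 of 4 complex II subunits, 2 of 8 in complex III, 6 of 12 tested in complex IV and 3 of 15 tested in complex V. Among the 8 mitochondrial members, 2 were called higher and 0 lower (0 also at an unadjusted p under 0.05 and by limma voom), with a median of 0.34 and all 8 values above 0.

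Atp5a1 and Atp5b encode the alpha and beta subunits that form the catalytic head of the ATP synthase. Atp5a1 was at 430, 451 and 501 normalized counts in WT macrophages and 707, 714 and 657 in the KO macrophages, with 735, 656 and 673 in the WT microglia and 648, 648 and 756 in the KO microglia. The WT macrophages were below all 9 other libraries, and the other 3 groups overlapped. Atp5a1 rose by 0.59 ± 0.09 with KO in macrophages (limma, adjusted p = 0.000135), and KO in microglia gave −0.01 ± 0.09 (95% interval −0.20 to 0.18). Atp5b was at 452, 461 and 431 in the WT macrophages and 647, 638 and 553 in the KO macrophages, a rise of 0.45 ± 0.09 (adjusted p = 0.00169). Its microglial values, 544 to 656 in WT and 545 to 594 in KO, also lay above the WT macrophages. Atp5o, the stalk subunit that holds the head, named after its values were seen, was called at 0.66 ± 0.22 (adjusted p = 0.0341), a call lost without WT macrophage replicate 2 or 3 or KO macrophage replicate 1 or 2.

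In complex I, Ndufs4, an accessory subunit of the NADH-oxidising arm, went from 68.8 ± 9.10 to 104 ± 7.60 (SD, n = 3), a rise of 0.59 ± 0.15 (adjusted p = 0.00726). Ndufa6, an accessory subunit of the matrix arm, was at 75.6, 69.9 and 77.4 in the WT macrophages and 134, 109 and 97.7 in the KO macrophages. It rose by 0.60 ± 0.16 in macrophages (adjusted p = 0.0108) and by 0.49 ± 0.16 in microglia (adjusted p = 0.0218). Ndufa13 rose by 0.65 ± 0.22 (adjusted p = 0.0327), a call lost without WT macrophage replicate 1 or 2 or KO macrophage replicate 1 or 2.

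The largest called rise was that of Ndufa4, a gene named for complex I whose protein is now placed in complex IV. It was at 15.5, 11.4 and 17.3 normalized counts in WT macrophages, 52.8, 39.3 and 25.1 in the KO macrophages, 28.2, 41.2 and 36.2 in the WT microglia, and 19.6, 42.3 and 31.3 in the KO microglia. WT macrophages were lowest without overlap, at a depth of few reads per library. The rise was 1.31 ± 0.33 (limma, adjusted p = 0.00727).

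Both membrane anchors of succinate dehydrogenase rose while its catalytic subunits were not called. Sdhc was at 58.3, 68.6 and 50.2 normalized counts in WT macrophages and 115, 99.5 and 85.5 in the KO macrophages, a rise of 0.75 ± 0.17 (limma, adjusted p = 0.00327). Sdhd, named after its values were seen, was at 51.0, 48.3 and 56.0 in the WT macrophages, 91.2, 90.7 and 80.4 in the KO macrophages, 96.9, 87.6 and 88.0 in the WT microglia, and 77.6, 70.8 and 109 in the KO microglia. The WT macrophages lay below all other libraries for both genes. Sdhd rose by 0.75 ± 0.17 (adjusted p = 0.00370). The flavoprotein Sdha differed by 0.16 ± 0.09 (95% interval −0.04 to 0.36) and the iron-sulfur subunit Sdhb by 0.35 ± 0.15 (0.02 to 0.67), with adjusted p-values of 0.202 and 0.0985. That anchors and catalytic subunits differ from each other was not tested.

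In complex III, Uqcrh, the hinge protein that docks cytochrome c1, was at 83.7, 100.4 and 92.2 in the WT macrophages and 129.7, 132.6 and 144 in the KO macrophages, and rose by 0.55 ± 0.13 (limma, adjusted p = 0.00392). Its microglial values were 88.1, 104 and 109 in WT and 144, 143 and 156 in KO, a rise of 0.56 ± 0.13 (adjusted p = 0.00222). All 6 KO libraries were above all 6 WT libraries. Uqcrq, named after its values were seen, was called at 0.67 ± 0.21 (adjusted p = 0.0218), a call lost without WT macrophage replicate 1 or 3 or KO macrophage replicate 1 or 2.

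In complex IV, Cox6a1 was at 47.3, 49.6 and 49.4 in the WT macrophages and 109, 94.2 and 73.3 in the KO macrophages, a rise of 0.89 ± 0.17 (limma, adjusted p = 0.000987). Cox6b1, a subunit at the interface of the complex IV dimer, was at 46.4, 44.5 and 60.9 in the WT macrophages and 106, 83.8 and 91.2 in the KO macrophages, a rise of 0.88 ± 0.17 (adjusted p = 0.000883). Neither gene's macrophage groups overlapped. Cox4i1, the regulatory subunit that starts assembly, rose by 0.54 ± 0.13 (157.1 ± 13.7 to 230.5 ± 37.96, adjusted p = 0.00565). Cox7a2l rose by 0.87 ± 0.23 (69.6 ± 24.9 to 125 ± 26.0, adjusted p = 0.00979), a call lost without WT macrophage replicate 2.

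The 2 nuclear members called lower were Ndufaf7 and Ndufab1. Ndufaf7, a methyltransferase that acts during complex I assembly and named here after its values were seen, was at 96.5, 91.5 and 75.7 in the WT macrophages and 68.8, 41.0 and 33.8 in the KO macrophages. It was at 67.9, 100.5 and 92.1 in the WT microglia and 37.3, 46.2 and 49.8 in the KO microglia. KO libraries were below WT libraries without overlap in each cell origin, by −0.92 ± 0.24 in macrophages (limma, adjusted p = 0.00999) and −0.94 ± 0.24 in microglia (adjusted p = 0.00568). Ndufab1, the mitochondrial acyl carrier protein, was called at −0.54 ± 0.19 (adjusted p = 0.0414), −0.32 without KO macrophage replicate 1. Its call is lost when any WT macrophage library, KO macrophage replicate 1 or 2, replicate 1 or 2 of the WT microglia, or KO microglia replicate 1 or 3 is left out.

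In the mitochondrial genome, mt-Nd2 was at 1106, 993 and 1424 normalized counts in WT macrophages, 1700, 1780 and 1473 in the KO macrophages, 2219, 1860 and 1881 in the WT microglia and 1829, 1821 and 2043 in the KO microglia. The WT macrophages were lowest without overlap. mt-Nd2 rose by 0.50 ± 0.12 in the KO macrophages (limma, adjusted p = 0.00543). mt-Nd1 was called at 0.51 ± 0.16 (2004 ± 466 to 2837 ± 485, adjusted p = 0.0268), a call lost without WT macrophage replicate 1 or 2 or KO macrophage replicate 2, with a value of 0.34 without WT macrophage replicate 2.

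The counts depend on single libraries to different degrees. Without KO macrophage replicate 1, 15 nuclear and 5 mitochondrial members were called higher. The mitochondrial count was 4 without WT macrophage replicate 3, and 1 without WT macrophage replicate 1 or 2 or KO macrophage replicate 2. Fitted by limma voom on the recovered reads, 14 of 88 nuclear members were called higher, against 22 in the main fit. The share of all tested genes called higher in these alternative fits was not computed. These lower counts therefore cannot be set against the 16% of the main fit, and whether the excess of called rises holds in them is not known. The proliferation gene Mki67 was at 170 to 233 normalized counts in WT macrophages and at 2026, 887 and 904 in the KO macrophages, highest in replicate 1. In microglia Mki67 was at 107 to 219 in WT and 705 to 1224 in KO. It rose by 2.54 ± 0.31 in microglia (limma, adjusted p = 5.96e-06) and by 2.56 ± 0.31 in macrophages (adjusted p = 1.39e-05). The neuronal marker sums were also higher in both KO groups. Their part in these changes was not tested.

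**Figure D3:**
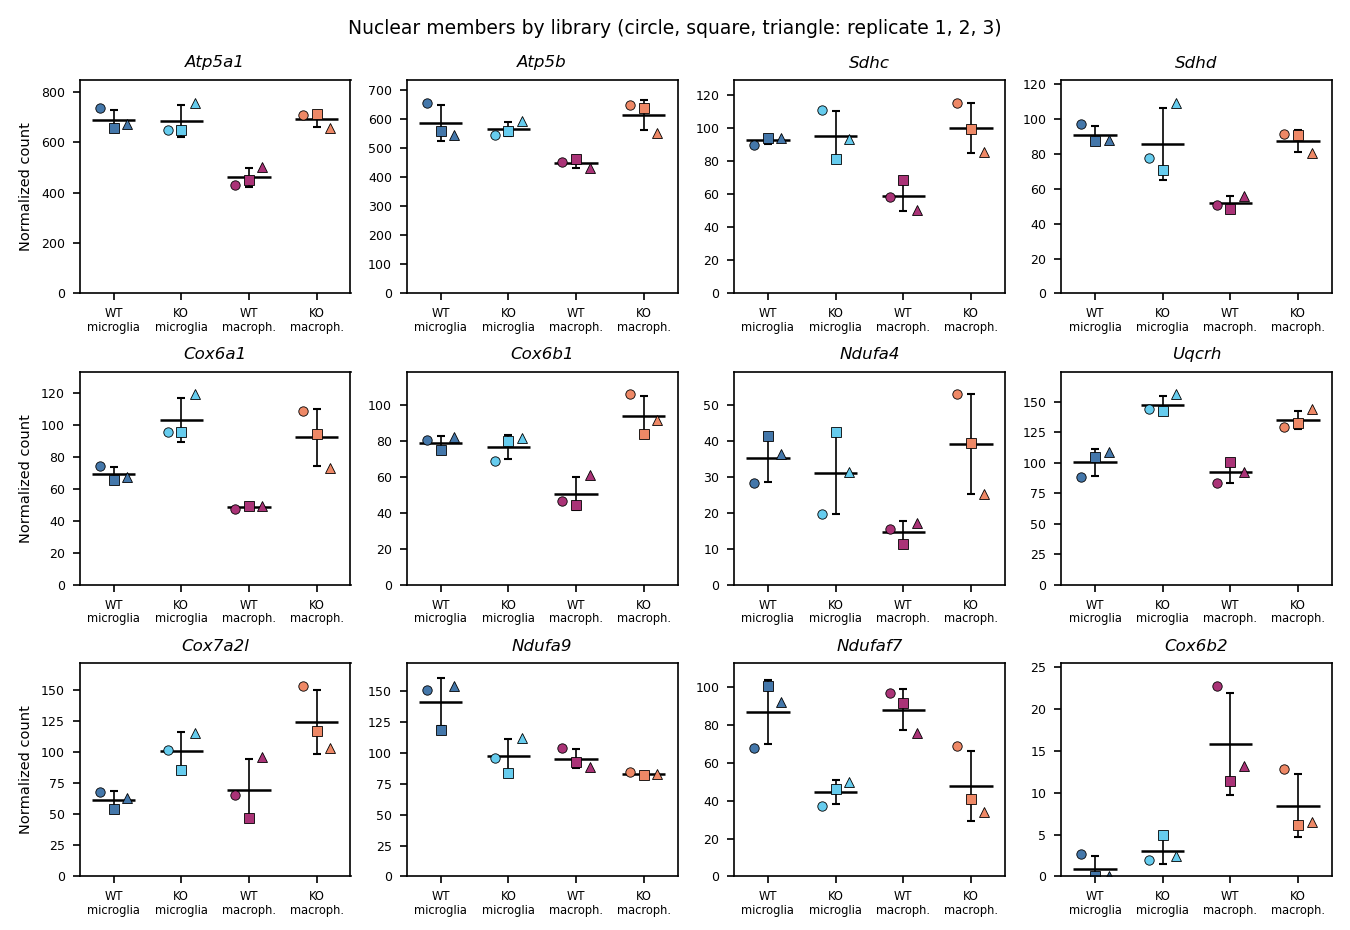
Normalized count (y axes, from 0) of nuclear members in every library, by group, with mean and SD (n = 3). WT macrophages are the lowest group for Atp5a1 (430 to 501), Cox6b1 (44.5 to 60.9) and Sdhd (48.3 to 56.0), while Uqcrh is higher in both KO groups.

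The WT macrophages were compared with WT microglia next; these are the same WT macrophage libraries as in the KO comparison, so the values of the 2 comparisons are not independent. Of 88 nuclear members, 13 were called lower (14.8%, against 20.2% of all tested genes) and 2 higher (2.27%, against 19.2%), where 39.4% of all tested genes were called in either direction. The nuclear median was −0.15, against 0.00 over all tested genes. Of the 8 mitochondrial members, 5 were called lower and 0 higher, with a median of −0.56. The 1 mitochondrial member higher at an unadjusted p under 0.05 was mt-Nd6, which limma voom also called. The share of mitochondrial members called lower was thus 62.5%, against the background of 20.2%.

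mt-Nd2 was lower in WT macrophages by −0.77 ± 0.12 (limma, adjusted p = 0.000119) and mt-Nd5 by −0.66 ± 0.15 (3380 ± 350.4 against 2147 ± 256, adjusted p = 0.00227). mt-Nd1 was lower by −0.63 ± 0.16 (adjusted p = 0.00692). mt-Cytb was at 4801, 4307 and 4290 in the WT microglia and 3132, 2599 and 3872 in the WT macrophages, groups that did not overlap, and was lower by −0.50 ± 0.14 (adjusted p = 0.01001). Without WT macrophage replicate 2 mt-Cytb was not called, and 3 mitochondrial members were called lower instead of 5. mt-Nd4 was called at −0.35 ± 0.12 (adjusted p = 0.0291), −0.23 without WT macrophage replicate 2, and was not called without that library, WT macrophage replicate 1, or replicate 1 or 3 of the WT microglia. mt-Co1 differed by −0.32 ± 0.18 (adjusted p = 0.175) and mt-Nd6 by 0.52 ± 0.23 in the other direction (adjusted p = 0.0853). mt-Nd3 was too sparse to compare closely, at 8.28 to 19.3 in the WT microglia and 3.64 to 6.58 in the WT macrophages (−1.24 ± 0.53, adjusted p = 0.0783).

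Among nuclear members, Atp5a1 was lower by −0.58 ± 0.09 (limma, adjusted p = 9.76e-05) and Atp5b by −0.38 ± 0.09 (adjusted p = 0.00358). Ndufs8, an iron-sulfur core subunit of complex I, was at 105, 88.9 and 122 in the WT microglia and 65.5, 59.7 and 63.4 in the WT macrophages, and was lower by −0.72 ± 0.16 (adjusted p = 0.00206). Ndufa9, an accessory subunit near the ubiquinone site, was at 151, 119 and 154 in the WT microglia, 104, 92.8 and 88.9 in the WT macrophages, 96.2, 83.6 and 112 in the KO microglia and 84.8, 82.0 and 82.6 in the KO macrophages. For Ndufa9 it is the WT microglia that stood apart, above all 9 other libraries. It was lower by −0.56 ± 0.15 in the WT macrophages (adjusted p = 0.00747).

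Of the 2 nuclear members called higher in WT macrophages, Cox6b2 was tested only because it is high there, so its call is not read as a result, and its counts are given with the isoforms. Cox7c was called at 0.76 ± 0.25 (23.7 ± 7.06 against 39.9 ± 5.59, limma adjusted p = 0.0266), a call lost without replicate 2 or 3 of the WT microglia or WT macrophage replicate 2 or 3; it was named after its values were seen. The count of members called higher was 1 without replicate 2 or 3 of the WT microglia or WT macrophage replicate 3.

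In KO against WT microglia, members of complexes I, III and IV were among the genes called. Of 88 nuclear members, 6 were higher (6.82%, against 21.9%) and 4 lower (4.55%, against 20.6%), while 42.5% of all tested genes were called in either direction. The nuclear median was 0.02, against −0.01 over all tested genes. The rises were those of Uqcrh and Ndufa6, given above, and 4 complex IV members. Complexes II and V had 0 subunits called in either direction by limma or limma voom. At an unadjusted p under 0.05, complex II had 0 and complex V had 1 higher and 1 lower.

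Cox6a1 was at 74.0, 65.7 and 67.3 in the WT microglia and 95.3, 95.4 and 119 in the KO microglia, groups that did not overlap, and rose by 0.57 ± 0.17 (limma, adjusted p = 0.0129). Cox7a2l was at 67.9, 54.1 and 63.1 in WT and 102, 85.5 and 116 in the KO microglia, and rose by 0.70 ± 0.23 (adjusted p = 0.0233). Cox6c and Cox7c, both named after their values were seen, were called at 0.72 ± 0.26 (adjusted p = 0.0359) and 0.85 ± 0.25 (adjusted p = 0.0131), and Cox6c was at 0.41 without WT microglia replicate 2.

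Besides Ndufaf7, the falls were Ndufa9, by −0.53 ± 0.15 (limma, adjusted p = 0.00850), Uqcrc2, a core subunit of complex III, and Sdhaf1, which helps to mature the iron-sulfur subunit of complex II. Uqcrc2 was at 142, 130 and 110 in WT and 81.5, 87.5 and 113 in the KO microglia, overlapping groups, and was called at −0.44 ± 0.15 (adjusted p = 0.0276). Sdhaf1, named after its values were seen, was at 36.7 ± 4.27 in WT and 19.0 ± 6.98 in the KO microglia (−0.97 ± 0.35, adjusted p = 0.0362).

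Few of these calls were independent of single libraries. Ndufa9, Ndufaf7 and Uqcrh were called whichever library was left out. Cox6a1 was lost without KO microglia replicate 3, and Cox7a2l without WT microglia replicate 2 or KO microglia replicate 1 or 3. Ndufa6 was lost without replicate 1 or 2 of the WT microglia or KO microglia replicate 2 or 3, Cox6c without WT microglia replicate 2 or any KO microglia library, and Cox7c without WT microglia replicate 3 or KO microglia replicate 2. Uqcrc2 was lost without WT or KO microglia replicate 1 or 2, and Sdhaf1 without any WT microglia library or KO microglia replicate 1 or 3. The 6 rises fell to 2 without KO microglia replicate 3 and to 3 without WT or KO microglia replicate 2, and the 4 falls to 2 without WT or KO microglia replicate 1. With Ddx3y as a covariate 2 nuclear members were called lower, and the calls of Cox6c, Cox7a2l, Ndufa6, Sdhaf1 and Uqcrc2 were lost.

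**Figure D4:**
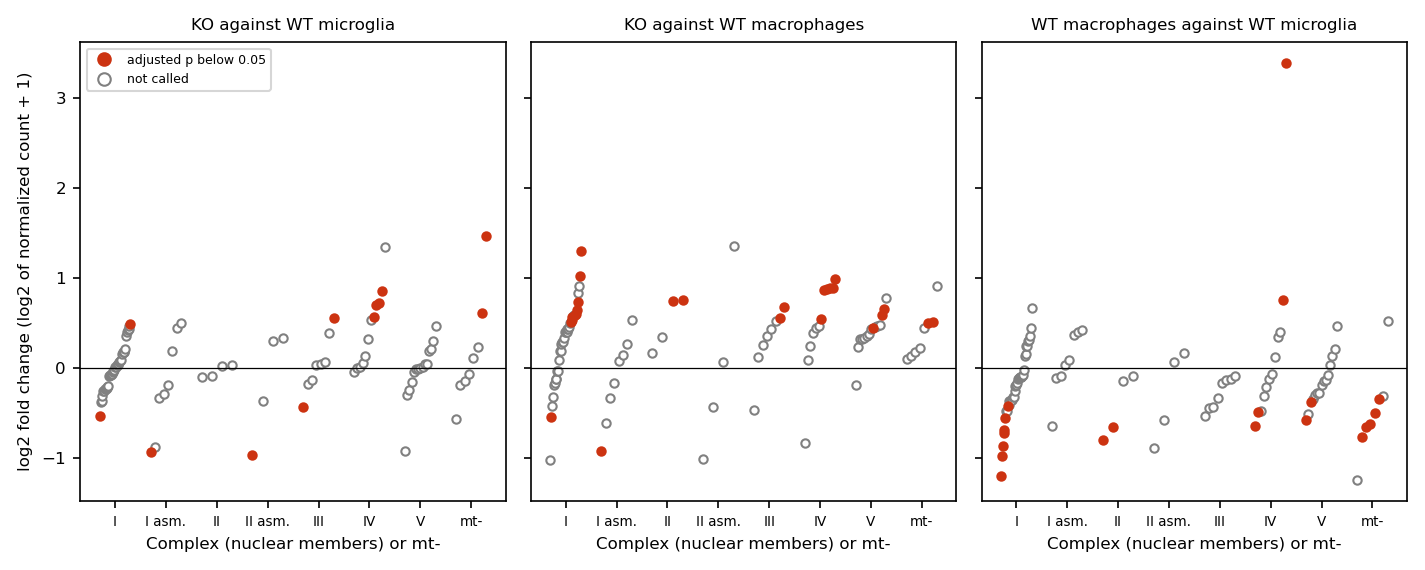
Log2 fold change (y axis) of every tested member in 3 comparisons, grouped along the x axis by complex or assembly role (asm.), with called members filled. In KO against WT macrophages most nuclear members lie above 0 (median 0.39), and in KO against WT microglia they centre near 0 (median 0.02).

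Few members separated the KO groups of the 2 cell origins. In KO macrophages against KO microglia 0 of 88 nuclear members were called by limma or by limma voom, against 10.5% of all tested genes in either direction (5.45% higher and 5.05% lower). At an unadjusted p under 0.05, 6 nuclear members were higher and 0 lower. The nuclear median was 0.10. For Atp5a1 the difference was 0.02 with a 95% interval of −0.17 to 0.21, and for Sdhd 0.05 with an interval of −0.31 to 0.41. The 1 mitochondrial call was mt-Nd6, lower in KO macrophages as given above. Limma voom added mt-Co1, and without KO macrophage replicate 2 there were also 2 mitochondrial members called lower. Without KO microglia replicate 3, 2 nuclear members were called higher.

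The difference between the KO effects was then tested as an interaction, macrophages minus microglia. It was called for 10 of 88 nuclear members, all higher in macrophages (11.4%, against 13% of all tested genes called higher and 12.9% lower, 25.8% in all). At an unadjusted p under 0.05, 20 nuclear members were higher and 1 was lower, and limma voom called 6 higher and 1 (Cox6b2) lower. The Cox6b2 call is not read as a result, because Cox6b2 was tested through the WT macrophages. The nuclear median was 0.36, against 0.00 over all tested genes.

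For Atp5a1 the interaction was 0.60 ± 0.13 (limma, adjusted p = 0.00258), for Cox6b1 0.93 ± 0.23 (adjusted p = 0.00878), and for Atp5b 0.50 ± 0.13 (adjusted p = 0.0106). Ndufs8 (0.80 ± 0.23, adjusted p = 0.0169) and Sdhd (0.85 ± 0.24, adjusted p = 0.0171) were called whichever library was left out, as were those 3. Ndufa4 had the largest value, 1.53 ± 0.47 (adjusted p = 0.0252), lost without replicate 2 of WT microglia or WT macrophages or KO microglia replicate 1.

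Sdhc (0.72 ± 0.24, adjusted p = 0.0362), Ndufv2 (0.66 ± 0.22, adjusted p = 0.0392) and Atp5c1 (0.47 ± 0.17, adjusted p = 0.0499; named after its values were seen), an anchor of complex II, an iron-sulfur subunit of complex I and the rotor shaft of the ATP synthase, were each lost in 14 or more of 20 alternatives. Among mitochondrial members mt-Nd2 (0.57 ± 0.17, adjusted p = 0.0242) and mt-Nd6 were called, in opposite directions. With KO macrophage replicate 1 left out, 3 mitochondrial members were called higher, and 0 when any of 6 others (WT microglia replicate 1, KO microglia replicate 1 or 2, WT macrophage replicate 1 or 2, KO macrophage replicate 2) was.

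**Figure D5:**
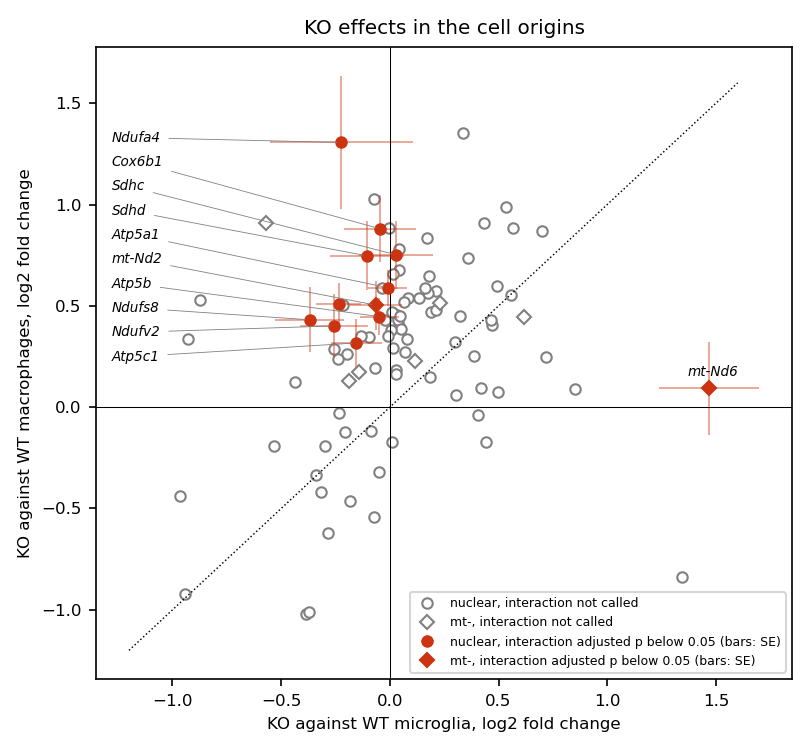
KO effect in macrophages (y axis) against KO effect in microglia (x axis), as log2 fold changes, for all 96 tested members. Filled symbols mark members with a called interaction: 10 nuclear members and mt-Nd2 lie above the dotted line of equal effects, and mt-Nd6 lies far to the right of it at 1.47 and 0.09.

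Several complex IV subunits and the ATP synthase c subunit exist as isoforms from separate genes. The general forms dominated: Cox4i1 averaged 117.1 normalized counts per kilobase in WT microglia and Cox6a1 98.3, whereas the muscle forms Cox6a2 and Cox7a1 and the lung form Cox4i2 averaged at most 5.88, 2.23 and 2.87 per kilobase in any group. Cox8a was at 56.7 ± 9.499 normalized counts in WT microglia and 72.7 ± 16.3 in the KO macrophages and was not called in any comparison. Of the c subunit genes, Atp5g3 was the most abundant, at 37.96 per kilobase in WT microglia against 2.33 for Atp5g1 and 1.24 for Atp5g2.

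Cox6b2, the testis form of Cox6b1, was at 2.64, 0 and 0 normalized counts in WT microglia, 1.96, 4.92 and 2.41 in the KO microglia, 22.8, 11.4 and 13.2 in the WT macrophages, and 12.8, 6.11 and 6.46 in the KO macrophages. Macrophage libraries were above microglial libraries without overlap in each genotype. There were 50 reads in WT macrophages and 3 in the WT microglia, a ratio of 15.5 with an exact 95% binomial interval of 5.00 to 77.5, which covers counting error only. Of its 4 libraries with at least 10 normalized counts, 3 were WT macrophages, so the difference is a description with no test. KO against WT macrophages gave −0.84 ± 0.58 (limma, adjusted p = 0.293). That comparison uses the same WT macrophage libraries, so it is not read as a result either.

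Upstream sequence was examined because nuclear members are known targets of NRF1 and of the ETS factor GABP. RefSeq windows on GRCm38.p6, from 250 bases before to 50 after the start, matched 78 of the 93 nuclear members. The NRF1 core GCATGCG, searched on both strands, was in 13 of the 78 (16.7%), against 4.01% of the windows of all genes and 7.77% of those of tested protein-coding genes. The ETS core CCGGAAG was in 21 (26.9%, against 9.93% and 21.7%), the YY1 core AAGATGG in 12 (15.4%, against 7.28% and 8.90%) and the SP1 core GGGCGG in 38 (48.7%, against 38.2% and 69.5%). These shares describe letters in a window and no binding. Of the 22 members called higher in KO macrophages, 17 had a window, and 3 held the NRF1 core and 4 the ETS core, against 10 and 17 of the other 61.

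Stretches of 6 of these windows are printed for members whose values are given in the text, with NRF1 or ETS matches in capitals, 5′ to 3′ on the gene's own strand. Cox6a1 holds both (chr5:115348959-115349123, minus strand). The ETS match is near the start in Uqcrh (chr4:116075071-116075130), Cox6b1 (chr7:30626115-30626174) and Sdhd (chr9:50603850-50603909), all on the minus strand. The NRF1 match is in Ndufa6 (chr15:82354332-82354391) and Ndufa8 (chr2:36049339-36049398), also on the minus strand. CTTCCGG is CCGGAAG read on the other strand, and CGCATGCG holds GCATGCG.
Cox6a1: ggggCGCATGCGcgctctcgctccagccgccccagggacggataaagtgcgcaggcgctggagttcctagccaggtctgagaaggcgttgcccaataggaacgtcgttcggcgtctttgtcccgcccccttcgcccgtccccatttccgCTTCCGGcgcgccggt
Uqcrh: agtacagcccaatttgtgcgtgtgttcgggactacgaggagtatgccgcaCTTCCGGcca
Cox6b1: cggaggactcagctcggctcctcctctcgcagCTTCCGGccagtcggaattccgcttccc
Sdhd: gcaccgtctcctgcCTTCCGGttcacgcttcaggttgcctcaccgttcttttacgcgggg
Ndufa6: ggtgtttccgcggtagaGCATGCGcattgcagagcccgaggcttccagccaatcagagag
Ndufa8: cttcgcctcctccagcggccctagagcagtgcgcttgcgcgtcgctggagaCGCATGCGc
Cox6a1, Uqcrh and Ndufa6 rose with KO in both cell origins, whereas Cox6b1 and Sdhd rose in macrophages and had microglial differences of −0.05 ± 0.17 and −0.10 ± 0.17. Ndufa8, a complex I accessory subunit named after its values were seen, was at 30.9, 17.8 and 38.7 in the WT macrophages and 83.2, 50.6 and 45.2 in the KO macrophages (1.03 ± 0.30, limma adjusted p = 0.0160), a call lost without WT macrophage replicate 2 or KO macrophage replicate 1. The ETS core is thus present in members of both kinds of response.

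Neighbouring steps of the pathway were read from the same fit. The tricarboxylic acid cycle and pyruvate dehydrogenase list (19 tested) had 6 genes higher and 0 lower in KO against WT macrophages, where 16% of all tested genes were higher and 15.4% lower. It had 0 higher and 8 lower in WT macrophages against WT microglia (19.2% and 20.2% of all tested genes). In KO against WT microglia 2 were higher and 4 lower, and 4 of 19 is close to the 20.6% of all tested genes called lower (21.9% higher). The interaction was higher for 6 and lower for 0, against 13% and 12.9%. Of the counts of 0 here, limma voom also gave 0, and an unadjusted p under 0.05 gave 0 lower in KO against WT macrophages and for the interaction and 1 higher in WT macrophages against WT microglia. Mdh2, the malate dehydrogenase of the cycle, named after its values were seen, was at 201.9 ± 5.48 in the WT microglia, 153 ± 23.4 in the KO microglia, 122 ± 16.3 in the WT macrophages and 182 ± 26.8 in the KO macrophages, with an interaction of 0.98 ± 0.20 (limma, adjusted p = 0.00201). Pdk1, a kinase that inhibits pyruvate dehydrogenase, was at 494 ± 39.7 in the WT microglia, 227 ± 4.32 in the KO microglia, 167 ± 18.0 in the WT macrophages and 224 ± 10.8 in the KO macrophages. It fell with KO in microglia (−1.11 ± 0.10, adjusted p = 2.46e-07) and rose with KO in macrophages (0.43 ± 0.10, adjusted p = 0.00476). Fumarase (Fh1) rose in both KO groups, by 0.50 ± 0.16 in microglia and 0.67 ± 0.16 in macrophages (adjusted p = 0.0228 and 0.00610).

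Of 8 electron carriers tested, Etfb, a subunit of the flavoprotein that passes electrons from fatty acid oxidation, had the only calls. It rose by 1.06 ± 0.17 in the KO macrophages (52.1 ± 4.46 to 111 ± 25.5, limma adjusted p = 0.000251) and was lower in WT macrophages than in WT microglia. Of all tested genes, 16% were called higher in the first comparison and 20.2% lower in the second, so 1 of 8 is close to those shares. In KO against WT microglia 0 carriers were called by limma or limma voom, against 42.5% of all tested genes. There, 2 carriers were higher at an unadjusted p under 0.05. Atpif1, the inhibitor protein of the ATP synthase, rose with KO in both cell origins, by 0.44 ± 0.13 in microglia (154 ± 28.6 to 206 ± 3.34, adjusted p = 0.0143) and 0.81 ± 0.13 in macrophages (127 ± 7.85 to 225 ± 24.2, adjusted p = 0.000263). Of 17 tested complex IV assembly factors, 0 were called for KO in either cell origin by limma or limma voom, against 42.5% of all tested genes called in microglia and 31.4% in macrophages, and 1 was lower in KO microglia at an unadjusted p under 0.05. Cox17, the copper chaperone, was higher in WT macrophages than in WT microglia (0.69 ± 0.18, adjusted p = 0.00667).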

How the data were processed

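The authors deposited log2 values for 25904 genes in 12 libraries. The mouse build GRCm38 and the tools STAR, bcl2fastq and CASAVA are named, per the submitters' processing notes. The counter, strand setting, annotation and size-factor method were not given in the sources used here. Per the labels' protocols, libraries came from a stranded pico-input total RNA kit, RIN 7.1 to 10 and inputs above 100 pg. Undoing the logarithm gave whole reads for 100% of 310848 values (tolerance 0.01 reads), so the deposited unit is log2(reads / size factor + 1), and 1 read was worth 0.718 to 1.6 normalized counts. Annotation came from GENCODE release 21; 5 pseudogene rows with matching prefixes were left out.

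limma 3.58.1 in R 4.3.3 (lmFit, eBayes with trend) fitted 4 group means to the deposited log2 values, with Benjamini-Hochberg adjustment over 12519 tested genes, and was tested on simulated data. Python 3.11.15 did the rest. The members, lists and tests were chosen with earlier results of these data known. Named nuclear genes are the 6 largest called rises and falls per comparison with a higher group mean of at least 100, and the isoform sets, with the largest called rise and fall per pathway list; Sdha, Sdhb and others marked in the text were named after their values were seen. A gene that this rule named is not reported here.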

Additional observations from a re-analysis of the deposited data

Results flagged for a closer look

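For 12 members the KO effect differed between the cell origins by limma's interaction test at an adjusted p under 0.05. The difference, macrophages minus microglia on the log2 scale, was −1.37 for mt-Nd6, which rose in KO microglia. It was positive for the other 11, among them 0.47 for Atp5c1, 0.50 for Atp5b, 0.57 for mt-Nd2, 0.60 for Atp5a1, 0.66 for Ndufv2, 0.72 for Sdhc, 0.80 for Ndufs8, 0.85 for Sdhd, 0.93 for Cox6b1 and 1.53 for Ndufa4. Of all tested genes, 25.8% had such a difference.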

How the results depend on the processing

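Of 71 called member results, 39 were called in every alternative run, 32 were lost in at least 1, and 0 reversed. The cause of a lost call was not tested. Counts in the alternative runs are given without the share of all tested genes called in the same run, which was not computed. With Ddx3y as a covariate, KO against WT microglia had 2 nuclear members lower and 1 mitochondrial member higher, KO against WT macrophages 1 nuclear member lower, KO macrophages against KO microglia 0 mitochondrial members lower, and the interaction 1 nuclear member lower. Under limma voom the nuclear rises were 14 in KO against WT macrophages and 6 in the interaction, where 1 was called lower; 2 mitochondrial members were lower in KO macrophages against KO microglia, and 1 was higher in WT macrophages against WT microglia, as it was with only the groups compared and with scaling by totals with or without mitochondrial rows (the latter added after seeing the data). With only the groups compared, KO against WT macrophages had 1 nuclear member lower and 1 mitochondrial member higher, and KO macrophages against KO microglia 0 mitochondrial members lower. Without a filter 1 nuclear member was lower in KO against WT macrophages, and with a minimum of 50 counts 0 were higher in WT macrophages against WT microglia.

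Leaving out each library in turn gave, for KO against WT microglia, 2 to 8 nuclear members higher, 2 to 6 lower and 1 to 2 mitochondrial members higher. For KO against WT macrophages it gave 15 to 28 and 1 to 3 nuclear members and 1 to 5 mitochondrial members higher. For WT macrophages against WT microglia it gave 1 to 3 nuclear members higher and 10 to 18 lower, and 0 to 1 mitochondrial members higher and 3 to 6 lower. For KO macrophages against KO microglia it gave 0 to 2 nuclear members higher and 0 to 2 mitochondrial members lower. For the interaction it gave 7 to 15 nuclear members higher and 0 to 1 lower, and 0 to 3 mitochondrial members higher. Scaling moved the median of all genes by at most 0.07 in size. No paired analysis was possible because the labels carry no replicate numbers, and the numbers used here pair no libraries between groups. Members with few reads, such as Ndufa4 and Cox6b2, have the least precise values.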

Other observations

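Genes of the mitochondrial ribosome, which translates the mitochondrial members, were called in both directions. Of 75 tested protein genes, 1 was higher and 6 lower in KO against WT microglia, against 21.9% and 20.6% of all tested genes. In KO against WT macrophages 5 were higher and 2 lower (1 and 4 by limma voom), against 16% and 15.4%. Both pairs of shares were below those of all tested genes. The median log2 change of the 75 was −0.08 in microglia and 0.25 in macrophages, where the nuclear members had 0.02 and 0.39. For the interaction 6 were higher and 1 lower, against 13% and 12.9% of all tested genes, with a median of 0.29. Mrpl52 fell in KO microglia (112 ± 7.07 to 58.4 ± 6.12 normalized counts, −0.93 ± 0.19, limma adjusted p = 0.00102), and Mrpl28 rose there (34.7 ± 6.03 to 87.0 ± 14.1, 1.30 ± 0.27, adjusted p = 0.00103).

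Of 19 tested genes for mitochondrial DNA transcription, replication and RNA stability, 4 were lower and 0 higher in KO against WT microglia (1 higher at an unadjusted p under 0.05, and 0 by limma voom). That count of 4 is close to the 20.6% of all tested genes called lower. Lrpprc, which stabilises mitochondrial messenger RNAs, fell most (395 ± 32.4 to 248 ± 24.7, −0.67 ± 0.14, limma adjusted p = 0.00129), and the transcription elongation factor Tefm was lower in KO microglia (−0.63 ± 0.24, adjusted p = 0.0457) and higher in KO macrophages (0.74 ± 0.24, adjusted p = 0.0285), with an interaction of 1.36 ± 0.34 (adjusted p = 0.00784). Tfam, which packages mitochondrial DNA and was named after its values were seen, was 98.5 ± 15.3 in WT and 78.2 ± 9.99 in KO microglia (−0.33 ± 0.19, adjusted p = 0.200). Of 8 tested nuclear regulators, 2 were lower and 0 higher with KO in each cell origin. The count higher was also 0 at an unadjusted p under 0.05 and by limma voom. Of all tested genes, 20.6% were called lower and 21.9% higher in microglia, and 15.4% and 16% in macrophages. With 8 genes tested, the counts of 2 lower are close to those shares. Gabpb1, a subunit of the ETS factor GABP, was lower with KO in both cell origins (−0.94 ± 0.14 in microglia, adjusted p = 6.99e-05, and −0.41 ± 0.14 in macrophages, adjusted p = 0.0414). The other in macrophages was Nrf1, the factor whose core was searched in the promoters, at 364 ± 43.8 in WT and 255 ± 85.3 in KO (−0.56 ± 0.20, adjusted p = 0.0431), groups that overlapped. In microglia Nrf1 differed by −0.22 ± 0.20 (adjusted p = 0.403), and the other call there was Pprc1 (−0.72, adjusted p = 0.000178), named after its values were seen.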
